A study of Mus musculus with 8 samples.

Results

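The genes described here are the collagens other than type IV: every protein-coding gene of the deposited table whose symbol has the form of a collagen chain (Col, a type number, a and a chain number), with the 6 Col4a genes left out. The rule uses names only and gave 38 genes of 22691 in the table, of which 17113 are protein coding. All 38 were found in the GENCODE M21 annotation of GRCm38 on the same chromosome. They were measured by RNA-seq in cell lines of mouse small cell lung cancer (SCLC), a neuroendocrine lung tumor, derived from primary lung tumors. Per the labels, all 8 libraries share the invCAG-Mycl-Luc transgene, which carries Mycl, the genotype Rb1-/-, the loss of another tumor suppressor gene, and the background strains FVB/n and 129/Ola. The sources used here name neither the Cre nor the cells it acted in, nor the age of the animals or the time after vector transfer. Each of 4 cultures gave an empty vector library and a library with overexpressed mouse Nfib, which encodes a DNA-binding nuclear factor I protein. Culture 1 is the line Lmyc1 and culture 4 the line Lmyc5, while cultures 2 and 3 are both labelled Lmyc3. Cultures 1 and 2 carry the word old and cultures 3 and 4 the word new, which no source used here explains. A culture's empty vector and Nfib libraries form a pair, and nothing says whether they came from separate flasks, so p-values measure only the spread between these samples.

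Collagens are secreted or membrane-bound proteins built from 3 chains wound into a triple helix, and most types need a fixed set of chains. Fibrillar collagens (types I, II, III, V, XI, XXIV and XXVII) form the fibrils of connective tissue, and FACITs are collagens with interrupted triple helices that sit on those fibrils. Type VI forms beaded filaments, type VIII hexagonal networks, multiplexins lie in basement membranes, and transmembrane collagens stay in the plasma membrane. In lung, type I and type III collagen are mainly products of fibroblasts.

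Total counts per library lay between 21815264 and 29934021, and 17530 to 18227 genes had a count. Levels are in CPM, counts scaled to a fixed library total after TMM adjustment. A count of 0 allows up to 3 counts, or 0.102 to 0.142 CPM, and such limits cover counting error only. Nfib was higher with the Nfib vector in every pair, at 72.0 against 1282 CPM in culture 1, 400.2 against 4682 in culture 2, 163 against 2933 in culture 3 and 487 against 3590 in culture 4. All 9 neuroendocrine markers listed were at 1 CPM or more in all 8 libraries. Of 13 fibroblast and pericyte markers in the table, Dcn, Lum, Acta2, Tagln, Postn, Fap, Cspg4 and Rgs5 stayed under 1 CPM in every library. The other 5, such as Pdgfra and Thy1, reached 1 CPM, and the list summed to 8.94 to 53.6 CPM with empty vector and 6.56 to 77.6 CPM with Nfib; their part in the collagen levels was not tested. Of the leukocyte markers, Ptprc was at 0 in 7 of 8 libraries, and Lyz2, Csf1r and Itgam stayed under 1 CPM, while Cd68 and Coro1a exceeded 1 CPM in all 8. Coro1a, an actin-binding protein, had 17.7 to 56.5 CPM and was called lower with Nfib by the paired DESeq2 test used below (adjusted p = 0.0302), a call lost without culture 2, 3 or 4, and the list summed to 29.5 to 58.1 CPM with empty vector and 19.7 to 46.1 CPM with Nfib. Of 7 endothelial markers, Pecam1, Cdh5, Tie1 and Emcn stayed under 1 CPM, while Vwf had 38.7 to 649.9 CPM, Tek reached 1.37 CPM and Kdr reached 5.75 and 6.48 CPM with Nfib in cultures 2 and 3. That list summed to 51.8 to 650.1 CPM with empty vector and 44.9 to 576 CPM with Nfib. The part of these lists in the collagen levels was not tested. Y-linked Ddx3y lay between 69.3 and 165 CPM (of total counts) in the 4 libraries labelled Lmyc3 and at most 0.0397 in the other 4.

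The sequences upstream of 3 collagen genes are shown because these had the lowest p-values in the within-pair comparison described further on, and because nuclear factor I proteins are known to bind TTGGC motifs. Each line gives the 250 bases before the transcription start from RefSeq (GRCm38.p6), 5′ to 3′ in the direction of transcription, with each TTGGC or GCCAA in capitals.
Col6a5, chr9:105960644-105960893, minus strand: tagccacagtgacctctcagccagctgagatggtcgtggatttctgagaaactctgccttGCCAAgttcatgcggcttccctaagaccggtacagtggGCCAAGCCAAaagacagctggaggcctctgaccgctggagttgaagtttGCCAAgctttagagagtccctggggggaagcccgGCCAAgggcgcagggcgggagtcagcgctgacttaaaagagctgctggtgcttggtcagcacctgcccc
Col8a1, chr16:57754738-57754987, minus strand: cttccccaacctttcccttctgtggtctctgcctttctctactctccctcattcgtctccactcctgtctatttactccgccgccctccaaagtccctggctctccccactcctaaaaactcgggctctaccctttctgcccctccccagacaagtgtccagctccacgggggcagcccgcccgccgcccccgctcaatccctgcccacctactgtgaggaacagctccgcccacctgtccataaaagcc
Col23a1, chr11:51289670-51289919, plus strand: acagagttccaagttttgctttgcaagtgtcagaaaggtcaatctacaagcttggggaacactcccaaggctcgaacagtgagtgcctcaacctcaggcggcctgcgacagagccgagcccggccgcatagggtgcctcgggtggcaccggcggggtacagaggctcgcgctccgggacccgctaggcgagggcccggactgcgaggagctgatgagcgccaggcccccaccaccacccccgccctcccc
The Col6a5 window held 5 of these motifs, all as GCCAA, with a pair of them directly adjacent to each other. Of 32536 mouse promoter windows of the same length, 28 (0.0861%) held 5 or more and 41.6% held at least 1. The Col8a1 and Col23a1 windows held none. RefSeq windows were matched for 30 of the 38 collagen genes. Of their 33 windows 11 (33.3%, against 41.6% of all windows) held the motif on either strand, searched as TTGGC or GCCAA. The full palindrome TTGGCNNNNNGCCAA was in 0 of the 33 windows and in 0.0369% of all windows. GCCAA overlaps the CCAAT box when a T follows it, which was the case for none of the 5 in Col6a5. A match is a description of these letters, and binding was not measured.

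Most collagen genes were low or silent in these cells. Of the 38, 22 reached 1 CPM in at least 1 library (called expressed here) and 16 did not, at between 1 and 48 counts over all 8 libraries. Among protein-coding genes 76.2% were expressed by the same rule, against 57.9% of the collagens. Only Col8a1, Col9a2, Col11a2 and Col7a1 were expressed in all 8 libraries, which is 10.5% of the collagens, against 60.8% of protein-coding genes. The 16 silent genes include the chains of the major fibrils, Col1a1, Col1a2, Col2a1, Col3a1 and Col5a2, and also Col24a1, Col6a1, Col6a2, Col6a3, Col9a1, Col12a1, Col19a1, Col10a1, Col13a1, Col17a1 and Col26a1. Around the threshold, the lowest maximum of an expressed gene was 1.05 CPM and the highest of a silent gene 0.690 CPM (Col6a1). Between 7 and 15 collagen genes were expressed in a library.

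**Figure D1:**
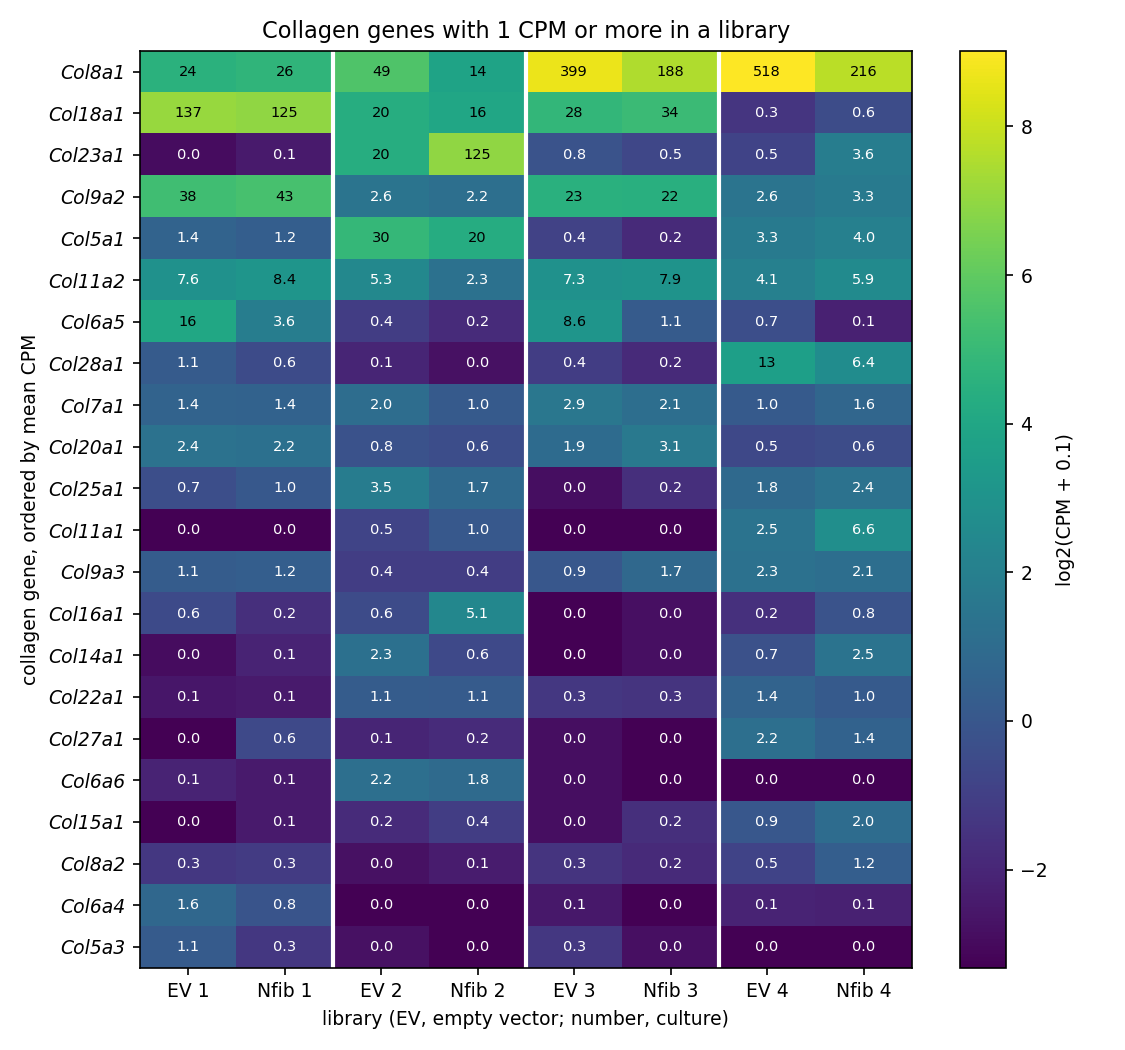
Level of the 22 expressed collagen genes in each library, as CPM written in the cells (rounded, so that 0.0 means under 0.05 CPM) and as colour on a log2(CPM + 0.1) scale; columns are libraries in pairs by culture. Neighbouring cells of a pair are mostly alike in colour, while cultures differ, as for Col18a1 at 137 and 125 CPM in culture 1 and under 1 CPM in culture 4.

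Compared per kb of merged exon length, the level averaged over the 8 libraries was 22.9 CPM per kb for Col8a1, 6.45 for Col18a1, 5.49 for Col9a2 and 3.29 for Col23a1. Every other collagen gene averaged under 1 CPM per kb. The leading chain changed with the culture. On the per-kb scale it was Col18a1 in both libraries of culture 1, at 19.6 and 17.9, and Col8a1 in both libraries of cultures 3 and 4, at 24.0 to 66.1. In culture 2 it was Col8a1 with empty vector at 6.31 and Col23a1 with Nfib at 21.9.

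Summed over the 38 genes, and not scaled to length, collagen transcripts took 235 and 218 CPM in culture 1, 143 and 195 CPM in culture 2, 476 and 264 CPM in culture 3, and 557 and 263 CPM in culture 4, empty vector first. The sums of cultures 3 and 4 were led by Col8a1, which made up 93.0% of the sum in the empty vector library of culture 4 and 83.9% in that of culture 3. Without Col8a1 culture 1 had the highest sums, 212 and 192 CPM, and culture 4 the lowest, 39.0 and 47.4 CPM.

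**Figure D2:**
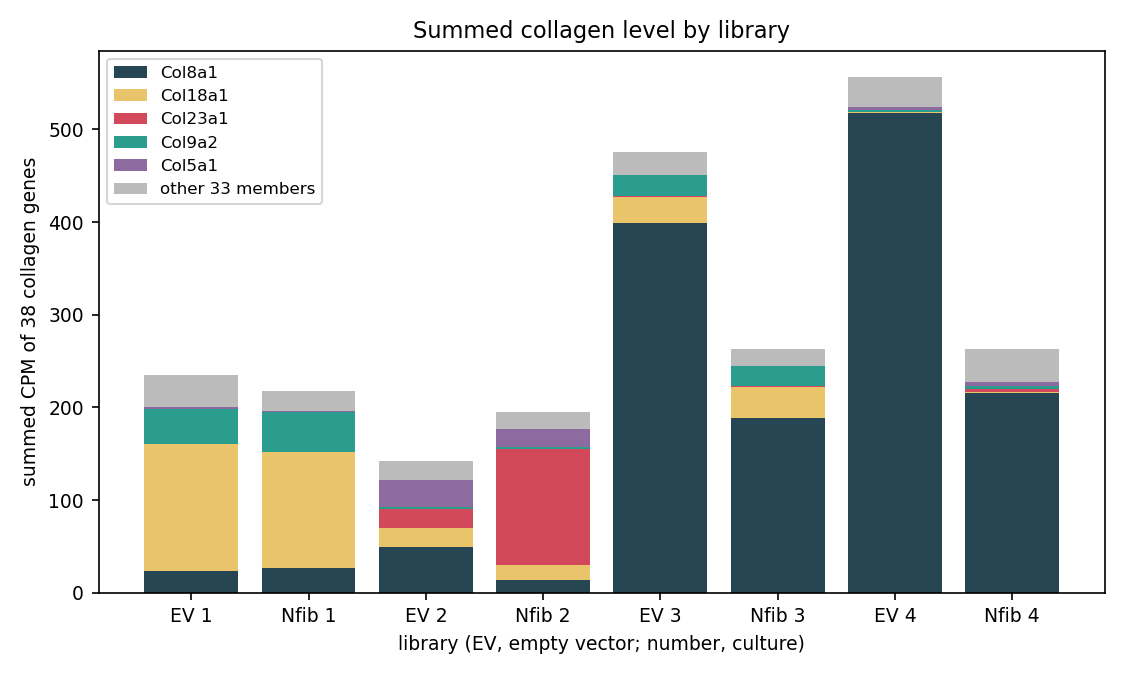
Summed CPM of the 38 collagen genes in each library (bars from 0), split into the 5 genes of highest mean CPM and all others. Col8a1 fills most of the bars of cultures 3 and 4, Col18a1 those of culture 1, and Col23a1 64.4% of the bar of the Nfib library of culture 2.

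The comparison of the 4 cultures asks whether a collagen gene differed between them more than between a culture's own libraries, allowing for a mean Nfib effect. By edgeR's quasi-likelihood F test with Benjamini-Hochberg adjustment over 14385 genes, 20 of the 22 collagen genes tested (90.9%) differed at an adjusted p under 0.05, where the background was 76.3% of all genes. The genes tested were 21 of the expressed genes and silent Col6a3; expressed Col5a3 did not pass the expression filter. Col11a2 (adjusted p = 0.13) and Col7a1 (0.227) were the exceptions. The highest and lowest culture mean were a median of 3.87 log2 units apart for the 22 genes and 1.0 over all genes tested. The span exceeded 2 log2 units in 19 of 22 (86.4%), against 27.4% of all genes. The filter by culture keeps genes that are high in 1 culture alone, such as Col6a6. Of the collagens 10.5% were expressed in all 8 libraries, against 60.8% of protein-coding genes. The part of this filter and of low levels in the wider span was not tested. These tests concern these 4 cultures, since the libraries of a culture share their source. In bulk libraries fewer cells with a transcript and less transcript per cell cannot be told apart.

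**Figure D3:**
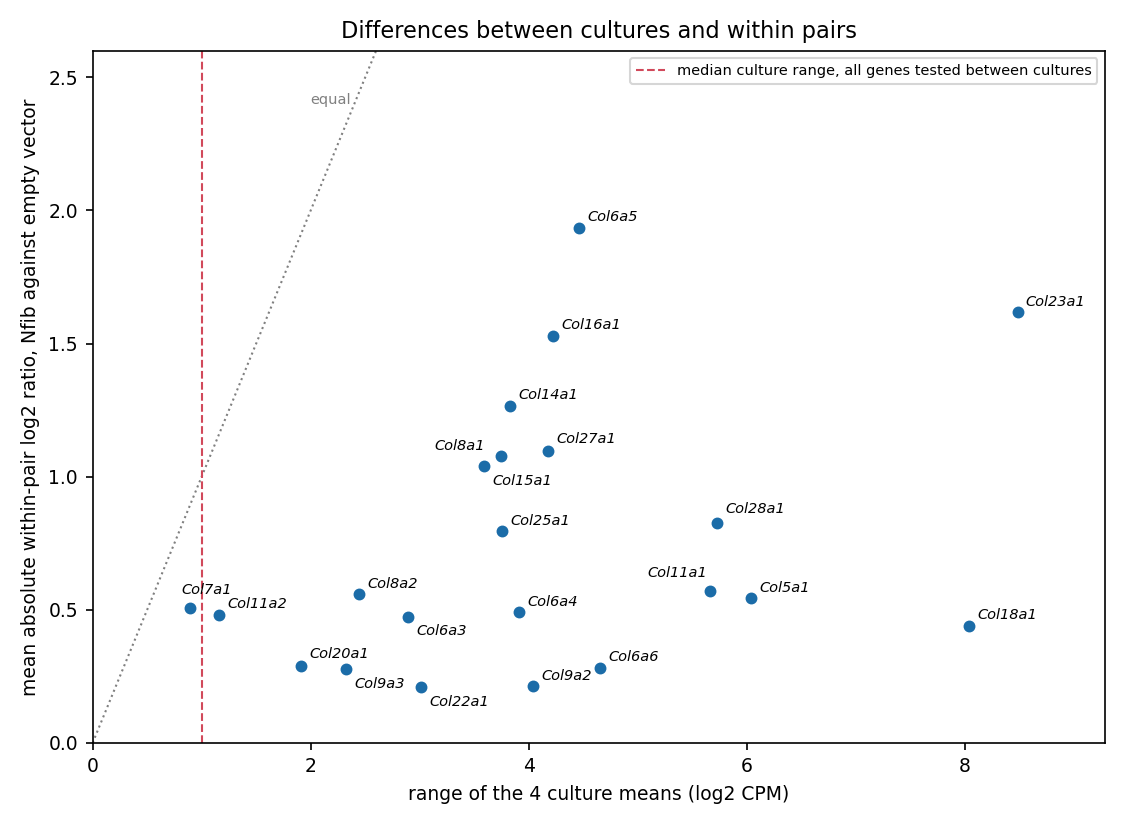
For each of the 22 collagen genes tested between cultures, the range of the 4 culture means (x axis, log2 CPM) against the mean absolute within-pair log2 ratio of Nfib to empty vector (y axis); the dashed line is the median range of all genes tested, 1.0, and the dotted line marks equal values. All 22 genes lie below the dotted line, and Col23a1 and Col18a1 lie farthest right, at 8.48 and 8.04. The x axis is the highest minus the lowest of 4 means and the y axis an average of 4 ratios. Lying below the line therefore does not compare like with like.

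The expressed genes were also compared between cultures by the size of the difference, with no test. In culture 1 against 2 and in culture 1 against 4, 13 of the 22 expressed genes differed by more than 4-fold between culture means, against 13.8% and 13.0% of all expressed genes. Between cultures 2 and 3, which carry the same line name, 10 of 22 did so, against 16.3% of all expressed genes. Cultures 1 and 3 had the fewest, 6 of 22, against 8.91%. The other 2 pairs of cultures had 11 each, against 11.7% and 14.0%. A gene was called specific to a culture when the lower of its libraries was at least 4 times the highest of the other 6 on the scale of CPM plus 0.5. By this rule of size, which is no test, Col23a1 and Col5a1 were specific to culture 2 and Col28a1 to culture 4, which is 13.6% of the expressed collagens against 2.66% of expressed protein-coding genes. The count depends on the ratio asked for, with 6 genes at 2 times and 0 at 8 times. A gene counts as expressed in these shares even when it reaches 1 CPM in 1 library only. The part of this rule and of low collagen levels in the contrasts with all expressed genes was not tested.

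For Nfib against empty vector, 16 of the 38 genes passed the expression filter by group. EdgeR without the pairing called 0 of them and 0% of all 13380 genes, with 0 collagens and 83 genes in all at an unadjusted p under 0.05. DESeq2 without the pairing also called 0 collagens, and 3 of all 13380 genes. DESeq2's Wald test with the replicate number as a block, by which rose and fell are used here, called 543 genes (4.06%), of which 249 were higher (1.86%) and 294 lower (2.2%) with Nfib. On simulated data this test called more unchanged genes than its threshold of 0.05 allows, a limit on each of its calls and adjusted p-values given here. Of the 16 collagens it called 1, which was lower. The median log2 fold change was 0.04 over the 16 collagens, with 9 above 0 and 7 below, and -0.01 over all genes tested. Signs were mixed between pairs: 2 of the 16 had the same sign in all 4 pairs, both lower, against 25.6% of all genes. The mean absolute within-pair log2 ratio was 0.56 at the median of the 16 collagens and 0.19 over all genes; the low counts of several collagens stand beside this, and their part was not tested.

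Col6a5 (ENSMUSG00000091345, chromosome 9, 105856078 to 105960643, minus strand) encodes an alternative to the Col6a3 chain in type VI collagen. It was at 16, 0.378, 8.61 and 0.677 CPM with empty vector in cultures 1 to 4, and at 3.62, 0.184, 1.08 and 0.117 CPM with Nfib. The Nfib library was the lower of the pair in all 4 cultures, although the groups overlapped because cultures 1 and 3 were far above cultures 2 and 4. Col6a5 fell by 2.33 ± 0.46 (SE) on the log2 scale, with an adjusted p of 6.92e-05 by DESeq2 with the block (n = 4 pairs). The pair ratios were -2.12, -0.79, -2.90 and -1.93 log2 units, of which the pairs of cultures 2 and 4 rest on 8 against 4 and 15 against 3 counts. Group means were 6.43 ± 7.46 (SD, n = 4) with empty vector and 1.25 ± 1.64 CPM with Nfib. The call ended without culture 1 (-2.33 ± 0.77, adjusted p = 0.0753) or culture 3 (-1.98 ± 0.60, 0.0501) by DESeq2. With the block, edgeR gave -2.35 (adjusted p = 0.126), limma voom -2.31 (0.0607) and the bias-adjusted form of edgeR -2.39 (0.0365), so the size stayed similar while the call did not always hold. EdgeR with the block called 0 of all 13380 genes, and the overexpressed Nfib itself had an adjusted p of 0.0657 by it. A missing call by that fit therefore does not set a gene apart from the others. Neuroendocrine markers moved in the same libraries: 2 of 9 fell by the same test (2.2% of all genes did), Scg2 by 1.23 ± 0.23 and Resp18 by 1.17 ± 0.27 log2 units, and the summed markers ran from 3004 to 5363 CPM with empty vector and 2045 to 4375 with Nfib. Both marker calls were lost without culture 2 and by edgeR with the block (adjusted p of 0.177 and 0.197). Their part in the result was not tested.

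**Figure D4:**
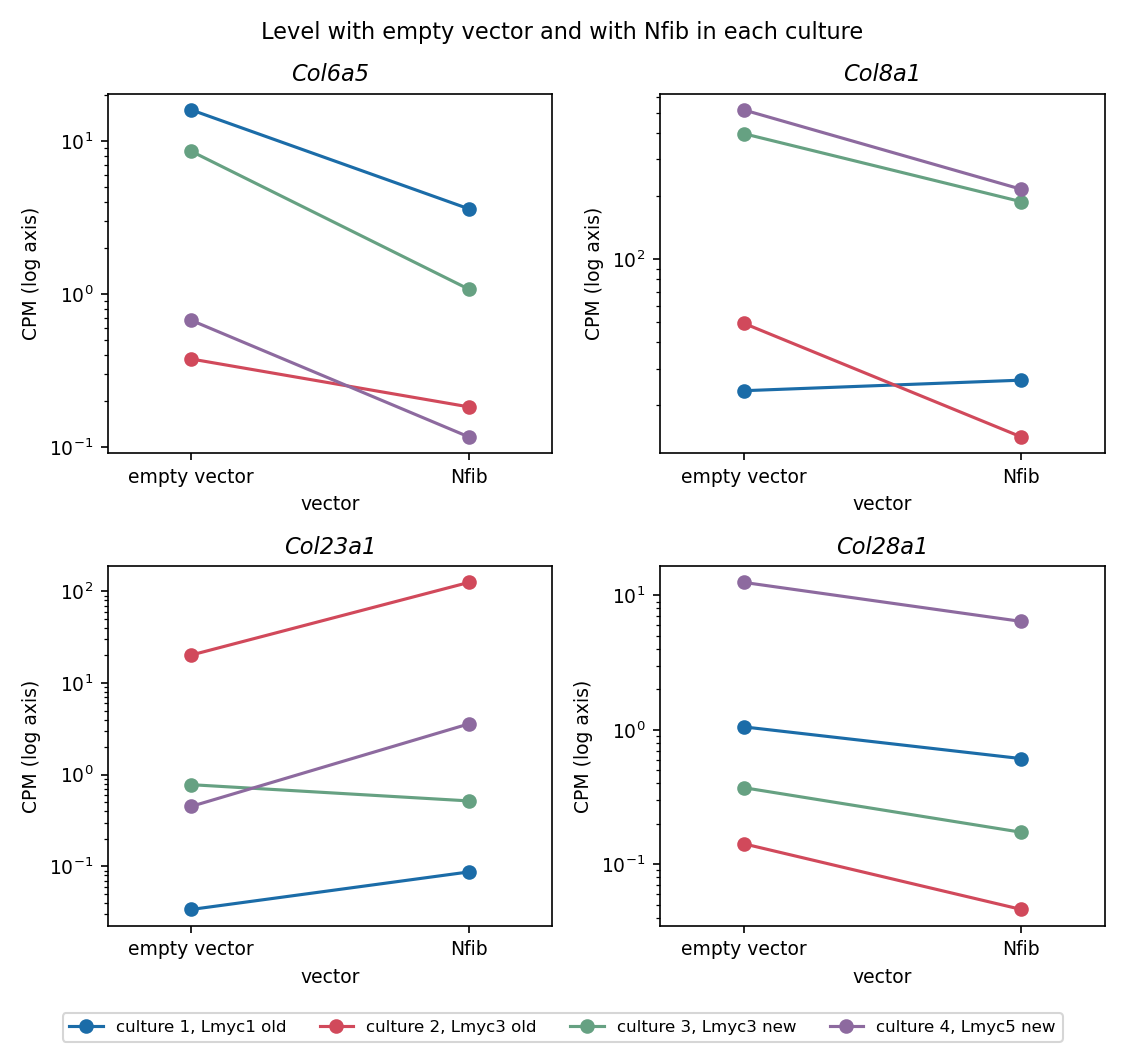
CPM (log axes) of Col6a5, Col8a1, Col23a1 and Col28a1 with empty vector and with Nfib, each line a culture. With Nfib all 4 lines end lower for Col6a5 and Col28a1 and 3 of 4 for Col8a1, while for Col23a1 the lines of cultures 1, 2 and 4 end higher and that of culture 3 lower.

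The other genes at an unadjusted p under 0.05 in that fit were Col23a1, Col8a1 and Col28a1, and none passed the adjustment. Col8a1 (ENSMUSG00000068196, chromosome 16, 57624258 to 57754737, minus strand), a chain of the type VIII network under endothelial and corneal cells, had a log2 difference of -1.01 ± 0.40 (adjusted p = 0.146, DESeq2 with the block). It stood at 23.5, 49.4, 399 and 518 CPM with empty vector and at 26.4, 14.1, 188 and 216 CPM with Nfib. The Nfib library was lower in cultures 2, 3 and 4, by 1.80, 1.08 and 1.26 log2 units in size, and slightly higher in culture 1, at 0.17. Without culture 1 the log2 difference was -1.38 ± 0.16 with an adjusted p of 1.21e-13. That fit left out the only pair with a ratio above 0 and kept cultures 2 and 3, both labelled Lmyc3, and culture 4. Without culture 2, 3 or 4 the 1 collagen called was another gene (Col6a5, Col23a1 and Col6a5 in turn). Col8a1 was thus called only when culture 1 was left out.

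Col23a1 (ENSMUSG00000063564, chromosome 11, 51289920 to 51583918, plus strand) encodes a transmembrane collagen. It stood at 20.2 CPM with empty vector and 125 CPM with Nfib in culture 2, and at 0.451 and 3.59 CPM in culture 4. In culture 3 it was 0.779 and 0.518 CPM, and in culture 1 it rested on 1 and 2 counts. The log2 difference was 1.78 ± 0.58 (adjusted p = 0.0532, DESeq2 with the block), with pair ratios of 0.54, 2.63, -0.52 and 2.78. Without culture 3 it was 2.70 ± 0.35 with an adjusted p of 1.43e-11, but without culture 2 it was 1.25 ± 1.07 (0.889), without culture 4 1.16 ± 0.99 (0.947) and without culture 1 1.79 ± 0.95 (0.509). The adjusted p was 0.0496 with TMM factors and 0.0491 with total counts in place of DESeq2's size factors, 0.234 by edgeR with the block and 0.0623 by limma voom with the block. Col28a1, a von Willebrand factor A domain collagen known from peripheral nerve, was lower with Nfib in all 4 pairs, by ratios of -0.71, -0.80, -0.83 and -0.96. The pairs of cultures 2 and 3 rest on 3 against 1 and 10 against 4 counts. The log2 difference of Col28a1 was -0.99 ± 0.45 (adjusted p = 0.268, DESeq2 with the block). The folds of Col23a1 and Col28a1 were chosen for printing after their values were seen.

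Among fibrillar collagens 5 of 11 genes were expressed. Col5a1 (ENSMUSG00000026837, chromosome 2, 27886425 to 28039514), which starts and limits type I fibrils, was at 29.6 and 19.7 CPM in culture 2, 3.30 and 4.02 in culture 4, 1.42 and 1.18 in culture 1, and 0.445 and 0.173 in culture 3 (empty vector and Nfib in turn). Culture 2 was therefore above all others in both libraries, an order not tested on its own. The joint test of the 4 cultures gave an adjusted p of 0.00024 (edgeR). No change was called with Nfib (-0.35 ± 0.32, adjusted p = 0.746, DESeq2 with the block). Col11a2, a chain of cartilage type XI, lay between 2.35 and 8.41 CPM and did not pass in either comparison (-0.08 ± 0.35 with Nfib, adjusted p = 0.975). Col11a1 was at 2.53 and 6.63 CPM in culture 4, at 0.473 and 0.966 in culture 2 and at 0 counts in the 4 libraries of cultures 1 and 3. Col27a1 reached 2.17 and 1.37 CPM in culture 4 and at most 0.566 elsewhere, and Col5a3 reached 1.05 CPM in the empty vector library of culture 1 alone.

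Among FACIT and FACIT-like collagens 6 of 9 were expressed, and 0 of the 6 tested passed with Nfib. Col9a2 (ENSMUSG00000028626, chromosome 4, 121039385 to 121055322), a cartilage FACIT chain, fell into a high and a low set of cultures, with 37.8 and 43.0 CPM in culture 1 and 22.8 and 21.7 in culture 3 against 2.6 and 2.16 in culture 2 and 2.62 and 3.32 in culture 4. The libraries of a pair lay close together, at 0.05 ± 0.17 log2 units with Nfib (adjusted p = 0.967, DESeq2 with the block), against a culture adjusted p of 9.98e-05 by edgeR. Col20a1 was between 1.89 and 3.07 CPM in cultures 1 and 3 and between 0.542 and 0.757 in cultures 2 and 4, the same split into high and low cultures as Col9a2. Col9a3 was highest in culture 4 at 2.30 and 2.11 CPM and lowest in culture 2 at 0.378 and 0.368. Col22a1 was at 1.01 to 1.44 CPM in cultures 2 and 4 and at most 0.297 in the others. Col16a1 reached 5.11 CPM with Nfib in culture 2 and stayed under 1 CPM in the other 7 libraries, and Col14a1 passed 1 CPM only with empty vector in culture 2 (2.27) and with Nfib in culture 4 (2.54). Log2 differences with Nfib were 0.15 ± 0.44 for Col20a1, 0.22 ± 0.47 for Col9a3 and -0.18 ± 0.64 for Col22a1, with adjusted p of 0.956, 0.937 and 0.968 by DESeq2 with the block. Exons of Col9a3 overlap those of Tcfl5 on the opposite strand, which reached 21.9 CPM, and exons of Col20a1 overlap a noncoding gene on the same strand at 3.63 to 10.5 CPM. The counting is not stated to use strand, and the overlap of Col20a1 is on its own strand, so both values are uncertain.

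Of the type VI chains 3 of 6 were expressed, and the core chains Col6a1, Col6a2 and Col6a3 were not. Col6a4, Col6a5 and Col6a6 lie next to each other on the minus strand of chromosome 9, from 105687809 to 106096783, and were not all high in the same culture. Col6a4, like Col6a5, was highest in culture 1; it was at 1.63 and 0.828 CPM in culture 1 and at most 0.135 elsewhere. Col6a6 was at 2.18 and 1.84 CPM in culture 2 and at most 0.136 elsewhere, so that it was highest in a culture where its neighbour Col6a5 was low.

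The multiplexin Col18a1 (ENSMUSG00000001435, chromosome 10, 77052178 to 77166548), source of the endostatin fragment, was at 137 and 125 CPM in culture 1, 20.5 and 15.9 in culture 2, 28.3 and 34.0 in culture 3 and 0.271 and 0.624 in culture 4. Culture 1 was above and culture 4 below all others, an order not tested on its own. The joint test of the 4 cultures gave an adjusted p of 9.91e-05 (edgeR). The difference with Nfib was 0.02 ± 0.22 log2 units (adjusted p = 0.99, DESeq2 with the block). Slc19a1 overlaps Col18a1 on the opposite strand outside its exons, at 17.7 to 28.2 CPM in all libraries. Col15a1, the other multiplexin, was highest in culture 4, at 0.903 and 1.99 CPM, where Col18a1 was lowest. Of the transmembrane collagens other than Col23a1, Col25a1, known from neurons, ran from 0.0371 to 3.5 CPM and was highest in the empty vector library of culture 2 (0.31 ± 0.63 with Nfib, adjusted p = 0.931, DESeq2 with the block). Of the rest, Col7a1, the anchoring fibril collagen of skin, was between 1.01 and 2.86 CPM in all libraries (-0.25 ± 0.45 with Nfib, adjusted p = 0.917, DESeq2 with the block). Col28a1 was at 12.5 and 6.40 CPM in culture 4 and between 0.0460 and 1.05 CPM in the other 6 libraries.

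Several chains were expressed where chains they are known to assemble with were absent or far lower; Col8a1 is also known to form trimers of its own. Per kb of exon, Col5a1 was at 3.48 in the empty vector library of culture 2 while Col5a2 had 0 counts there and 2 counts over all libraries. Col6a5 was at 1.70 CPM per kb in the empty vector library of culture 1, where Col6a1 and Col6a2 both had 0 counts. Col9a2 was at 12.2 CPM per kb in that library, against 0.282 for Col9a3 and 0.0201 for Col9a1. Col8a1 was at 66.1 CPM per kb in the empty vector library of culture 4, against 0.101 for Col8a2. In each case the named library is the one where the first chain was highest with empty vector. The gap between Col9a2 and Col9a3 was narrowest in culture 4, at 0.846 against 0.597 CPM per kb with empty vector and 1.07 against 0.547 with Nfib. The Col9a3 values are uncertain because of the overlap with Tcfl5 described above. These are levels of RNA and give no count of assembled molecules.

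**Figure D5:**
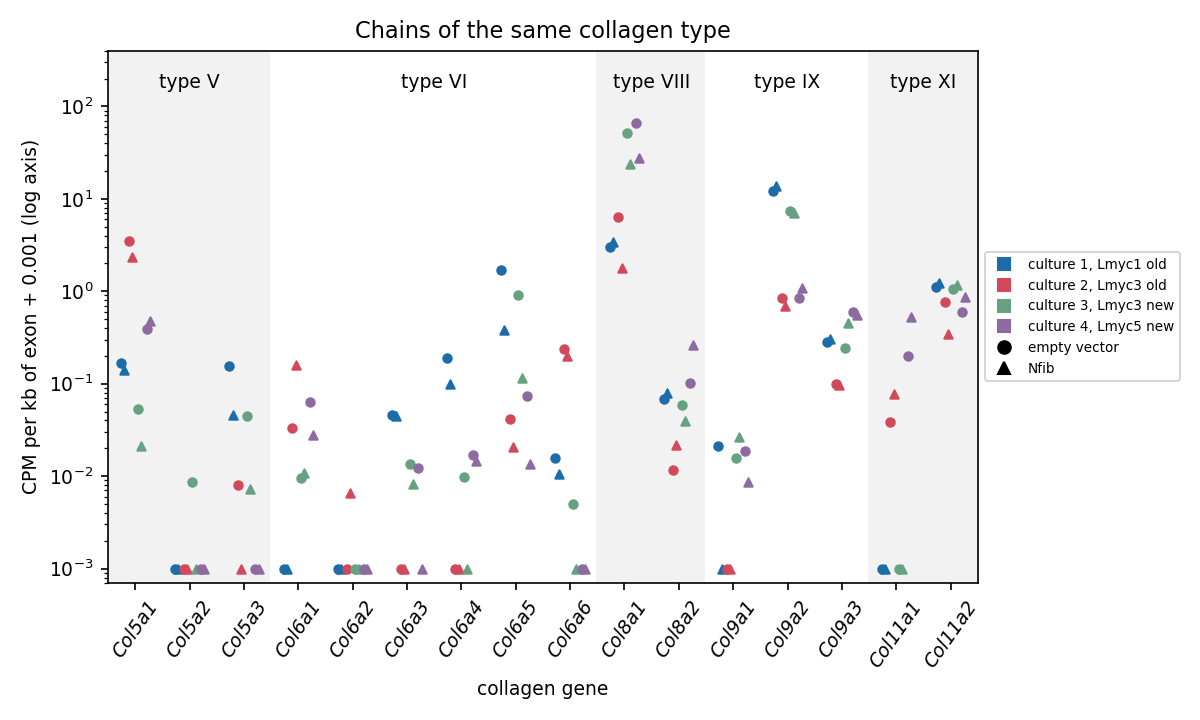
CPM per kb of exon plus 0.001 (log axis) for chains of types V, VI, VIII, IX and XI, with a point per library, coloured by culture and shaped by vector; points at the bottom line are libraries with 0 counts. Within types VIII and IX a single chain, Col8a1 or Col9a2, lies above the other chains of its type in every library, and Col5a2 and Col6a2 lie at the bottom line in 7 of 8 libraries.

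Genes that make, bind or break down collagen were followed through 6 lists. Of 13 tested hydroxylation and glycosylation enzymes 1 rose with Nfib, Leprel1, a prolyl 3-hydroxylase also called P3h2 (1.38 ± 0.31 log2 units, adjusted p = 0.00103, DESeq2 with the block). Its level was led by culture 2, at 34.8 and 67.6 CPM, and was 0 and 0.0436 CPM in culture 1. Of 6 tested folding and export genes 1 rose, Sec24d, a COPII coat subunit known for the export of procollagen, by 1.64 ± 0.44 (adjusted p = 0.00906). It went from 7.24 to 52.4 CPM in culture 2 and from 30.5 to 35.1 in culture 3. Serpinh1, which encodes the collagen chaperone HSP47, had 0 counts in 6 of 8 libraries and at most 0.184 CPM.

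Of 4 tested genes of procollagen processing and cross-linking 1 rose, Tll1, a protease that cleaves procollagen ends, by 2.45 ± 0.61 (adjusted p = 0.00377, DESeq2 with the block). It was at 0.644, 0.284, 0.223 and 11.9 CPM with empty vector and 1.26, 2.35, 6.65 and 32.3 with Nfib, higher in all 4 pairs. Of 7 tested collagen receptors 3 rose: Itga1, the integrin chain that pairs with beta 1 to bind collagen, by 3.52 ± 0.75 (adjusted p = 0.000311), Mrc2, an endocytic receptor, by 1.73 ± 0.51 (0.0236), and Ddr1, a receptor tyrosine kinase, by 0.25 ± 0.08 (0.0453). Itga1 was at 0, 0.993, 0 and 1.04 CPM with empty vector and at 0.697, 5.11, 0.432 and 8.39 CPM with Nfib. Of 2 tested collagen-degrading proteases 1 rose, Mmp15, a membrane-bound metalloprotease, by 0.91 ± 0.17 (adjusted p = 2.96e-05). It went from 12.1 to 29.0 CPM in culture 1, from 22.2 to 30.1 in culture 2, from 27.0 to 60.0 in culture 3 and from 41.8 to 74.1 in culture 4. Of 2 tested fibril partners 1 fell, the matricellular Thbs1, by 1.29 ± 0.32 (adjusted p = 0.00425), mainly in cultures 1 to 3, with 3.07 and 3.04 CPM in culture 4. Tll1, Itga1 and Mmp15 passed with each culture left out in turn. Thbs1 lost its call without culture 3, Leprel1 without culture 2 or 3, Sec24d without culture 1 or 2, and Ddr1 and Mrc2 whichever of the 4 was left out. The background for these lists is the same as above, 1.86% of all genes higher and 2.2% lower. EdgeR with the block called none of the 8 genes, but it also called 0 of all 13380 genes, so it does not set these 8 apart. Limma voom with the block called 3 of all genes and none of the 8. The bias-adjusted form of edgeR with the block called 44 of all genes and, of the 8, Itga1 only (adjusted p = 0.0375). By that form Leprel1 had 0.0648, Mmp15 0.0815, Thbs1 0.1219, Ddr1 0.1462, Tll1 0.1479, Mrc2 0.1755 and Sec24d 0.2425.

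Whether the Nfib effect differed between the cultures labelled old and new was tested by an interaction term in edgeR with the block. It called 0 of the 16 collagens and 0% of all 13380 genes, with 0 collagens and 405 genes in all at an unadjusted p under 0.05. DESeq2 also called 0 collagens, and 7 of all 13380 genes. The opposite signs of the Col8a1 ratio in culture 1 and the Col23a1 ratio in culture 3 against the other cultures were not tested on their own.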

How the data were processed

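The authors deposited raw RNA-seq counts per gene for 8 libraries on GRCm38, from TruSeq RNA libraries per the labels' protocols. The submitters' processing notes name DESeq2, SAMtools 0.1.19, TopHat2 2.1 and Bowtie 1.0.0. How reads were counted, with which annotation and whether by strand, is not given in the sources used here. The source field set the vector, since the titles use another word for the Nfib arm.

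All fits used the whole table and adjusted p-values over all genes tested. EdgeR 4.0.16 (R 4.3.3, TMM, original quasi-likelihood form, expression filter by group) tested Nfib against empty vector without a block, the differences between cultures (filter by culture) and the interaction with old or new. DESeq2 1.42.0 with the replicate block, with unshrunken fold changes, decided which genes rose or fell at an adjusted p under 0.05; limma 3.58.1 (voom) was an alternative. Libraries are paired by replicate number, since the labels tie each number to a single culture; their deviations from the group means correlated at 0.908, 0.884, 0.935 and 0.929. CPM used filtered library totals scaled by TMM, and within-pair ratios log2 CPM with a prior count of 2. Merged exon lengths came from GENCODE M21 and promoters from RefSeq. Collagens expressed in any library or passing a test are named with values, and folds are given for those passing the paired test or expressed in at least 4 libraries. Of other lists, members that pass are named, and further markers and Serpinh1 were named after their values were seen. A listed marker is not reported here, while list sums include it. Members and lists were chosen with earlier results of these data known. The scripts were tested on simulated data, where DESeq2 with the block called more unchanged genes than its threshold allows.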

Additional observations from a re-analysis of the deposited data

How the results depend on the processing

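Between 15 and 22 collagens were called between cultures over the alternatives and with each culture left out in turn (15 to 17). The 22 were of 38 tested without the filter, where 10916 of 22691 genes were called. With culture 1, 2, 3 or 4 left out, 17 of 20, 15 of 21, 15 of 22 and 17 of 19 tested collagens were called. Over all genes tested it was 9439 of 14128, 9437 of 14151, 8471 of 14069 and 8840 of 14082 in turn. The number of expressed collagens was 25 at 0.5 CPM and 17 at 2 CPM. Nfib against empty vector without pairing gave 0 collagen calls under all 9 alternatives, which include edgeR with the replicate block. The paired DESeq2 count of 1 was 0 by edgeR or limma voom with the replicate block and by DESeq2 with no replicate block, 1 (Col6a5) by the bias-adjusted form of edgeR, and 2 (with Col23a1) with TMM factors, total counts or the Lmyc3 cultures summed per arm. Over all 13380 genes, edgeR with the block called 0, limma voom with the block 3, DESeq2 with no block 3 and the bias-adjusted form of edgeR 44, against 543 by the paired DESeq2 fit. With each replicate left out the paired DESeq2 count of collagens stayed at 1, but the gene was Col8a1 without replicate 1 and Col23a1 without replicate 3. Culture-specific collagens numbered 6 at 2 times and 0 at 8 times. The receptor count of 3 was 0 by edgeR or limma voom with the block and by DESeq2 with no block. It was 1 by the bias-adjusted form of edgeR, with the Lmyc3 cultures summed per arm, and without any single replicate. Of 165 recomputed log2 differences over 13 collagens, 138 kept direction and side of the threshold, 5 lost and 5 gained a call, and 17 changed sign, none of them with a call, and the cause was not tested. For Col18a1 (0.0212 in the paired DESeq2 fit) these were -0.00852 (edgeR with the block), -0.0376 (voom), -0.0364 (bias-adjusted edgeR) and -0.0934 (no replicate block), with -0.0783 to 0.174 over the fits that leave out a replicate. For Col11a2 they were 0.0229 (voom), 0.0115 (no replicate block) and 0.116 (Lmyc3 summed), with -0.277 to 0.256 when a replicate was left out. For Col25a1 they were -0.0712 (bias-adjusted edgeR) and -0.167 (no replicate block), with -0.0271 to 0.861 when a replicate was left out. The same ranges were -0.0491 to 0.268 for Col20a1, -0.0214 to 0.345 for Col9a3 and -0.0201 to 0.121 for Col9a2. Low counts limit the pair ratios of genes under about 1 CPM.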
